A study of Mus musculus with 8 samples.

Results

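The 77 genes described here encode heat shock proteins, J-proteins and chaperonin subunits, and they were picked by gene symbol from 45556 named genes measured in B16F10 mouse melanoma cells. The rule took symbols that begin with Hsp, Dnaj or Cct, from the HSP90, HSP70, HSP110, small HSP, HSP60, HSP10, CCT and DnaJ A, B and C families. It left out pseudogenes and the endoplasmic reticulum proteins Hspa5, Hsp90b1, Dnajb9, Dnajb11 and Dnajc3. It also took Hspbap1, which encodes a protein that binds HSPB1, and Cct8l1. Family members with other names were not taken, such as Tcp1 (a further CCT subunit), Cryab (a small HSP) and Trap1 (the mitochondrial HSP90). The families are therefore not complete here. Bulk RNA sequencing covered 4 groups of 2 libraries each. These were shDRG2 cells, which carry a hairpin against Drg2, with IFN-γ at 5 ng/ml for 24 hours, pLKO cells, which carry the empty hairpin vector, with the same IFN-γ, and then shDRG2 cells and pLKO cells without IFN-γ. All groups are the same cell line, and the labels do not say how many hairpins were used, whether the lines are clones, or whether the 2 libraries of a group came from separate cultures, so p-values may measure technical spread only.

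Of the 77 genes, 66 had enough counts to be tested among 13500 genes, and 59 of those averaged at least 5 CPM, the count scaled to the adjusted library size. Another 7 had 0 counts in all libraries, which were Cct8l1, Dnajb3, Dnajb7, Dnajb8, Dnajc5g, Hspa12a and Hspb3. The remaining 4 were too low for the test: Dnajc5b with 1 count over all libraries, Hspa1l with 2, Hspb9 with 10 and Hspa1a with 13.

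Chaperones bind unfolded or newly made proteins. HSP70 proteins work in cycles of ATP use that J-proteins start and that nucleotide exchange factors such as the HSP110 proteins complete, HSP90 matures kinases and steroid receptors with its own co-chaperones, and the barrel-shaped chaperonins CCT (in the cytosol, for actin and tubulin among others) and HSP60 with its lid HSP10 (in mitochondria) fold proteins in a closed chamber. Small HSPs hold unfolded proteins without ATP. The heat-inducible members are switched on by the factor HSF1, which binds repeats of GAA and TTC called heat shock elements. Promoters of genes that respond to IFN-γ often carry GAS elements (gamma-activated sites).

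The promoter sequences that follow were chosen because they show the heat shock repeat in a gene that changed with IFN-γ (Hspb1) and in genes that did not pass the test (Hspa1b, Dnajb6, Hspe1). They are from RefSeq (GRCm38.p6), on the strand of the gene. Hspb1 is chr5:135887669-135887918 (plus strand), Hspa1b is chr17:34959239-34959488 (minus strand) and Dnajb6 is chr5:29735648-29735897 (plus strand), each being the 250 bases before the start of the transcript. For Hspe1, whose start lies close to that of Hspd1 on the other strand, the 30 bases around the element are given, at chr1:55088053-55088082 (plus strand). Capitals mark matches to GAANNTTC or TTCNNGAA, 2 neighbouring units of the repeat.

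Hspb1: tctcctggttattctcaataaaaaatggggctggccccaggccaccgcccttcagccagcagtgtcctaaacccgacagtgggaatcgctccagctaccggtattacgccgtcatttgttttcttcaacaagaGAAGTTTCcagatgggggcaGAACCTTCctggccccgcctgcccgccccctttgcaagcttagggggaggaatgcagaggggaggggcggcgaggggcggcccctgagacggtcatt
Hspa1b: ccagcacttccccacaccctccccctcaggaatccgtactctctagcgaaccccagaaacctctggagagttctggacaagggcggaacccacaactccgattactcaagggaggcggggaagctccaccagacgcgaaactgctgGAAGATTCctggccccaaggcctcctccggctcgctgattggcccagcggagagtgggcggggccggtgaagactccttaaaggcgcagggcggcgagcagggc
Dnajb6: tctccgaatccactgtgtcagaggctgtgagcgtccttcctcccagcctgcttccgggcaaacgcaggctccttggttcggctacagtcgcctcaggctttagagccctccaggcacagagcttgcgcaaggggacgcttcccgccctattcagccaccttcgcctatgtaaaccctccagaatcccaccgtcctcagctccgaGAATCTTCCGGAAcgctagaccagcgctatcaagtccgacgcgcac
Hspe1: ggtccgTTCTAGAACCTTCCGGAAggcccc

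In Hspb1 the capitals begin 117 and 97 bases before the start, and in Hspa1b 104 bases before it. In Dnajb6 and Hspe1 the overlapping matches make up 3 or more units. RefSeq promoter windows, from 250 bases before to 50 after the start, were found for 62 of the 77 genes (81 windows). The longer motif of 3 units (GAANNTTCNNGAA or TTCNNGAANNTTC), whose matches also hold the shorter one, was in 7.41% of these windows, against 0.603% of all 32851 windows of the table. It lay in windows of 4 genes, Dnajb6, Hspd1, Hspe1 and Hsph1. The windows of Dnajb6 overlap and hold the same match, as do those of Hsph1. Hspd1 and Hspe1 share the same site, read on opposite strands. The share of member windows therefore counts the same sites repeatedly. The motif of 2 units was in 27.2% of member windows against 15.1% of all windows. Of its 20 genes, Hspb1, Hspb6 and Hspb8 rose with IFN-γ in both lines, and Dnajc10 fell. Over all tested genes 16.2% and 15.4% were called higher in shDRG2 and pLKO cells, and 15.2% and 12.7% lower. These few genes are therefore no result about the motif. The match of Hspb8 lies just after the start, and Hspa1a was too low to be tested. Others were not called with IFN-γ, such as Cct2, Dnaja1, Hspa1b, Hspd1, Hspe1 and Hsph1, or had 0 counts (Cct8l1, Dnajc5g and Hspb3). Hspa4l, Dnajc1 and Dnajc17, which also rose in both lines, had no match in their windows, and for Hspb2, which rose too, no window was found. The letters of a GAS element, TTCNNNGAA, which reads the same on both strands, were in 4.94% of member windows against 8.3% of all windows, in Cct5, Dnajc7, Dnajc13 and Dnajc27. Both strands were searched, and a match is a description of letters only.

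Per kilobase of merged exon, the most abundant member was Hsp90ab1, the constitutive HSP90, at a mean of 1150 CPM per kb over the 8 libraries. Hspd1 (HSP60) followed at 680, Hspa8 (the constitutive cytosolic HSP70) at 640, Hsp90aa1 at 457 and Hspe1 (HSP10) at 284. Neighbours in this order overlapped in places: Hspa8 ran from 590 to 694 CPM per kb and Hspd1 from 610 to 743. Hsp90ab1 was above Hsp90aa1 per kb in all 8 libraries, by a ratio of 2.26 to 2.99. Hspa8 exceeded Hspa1b, the stress-inducible HSP70, 128- to 208-fold per kb. As shares of the CPM of all members, the HSP90 genes made up 26.8%, HSP70 and HSP110 24.9%, CCT 20.3%, HSP60 with HSP10 11.3%, DnaJ C 9.52%, DnaJ A 4.07%, DnaJ B 2.43% and the small HSP group 0.692%. These shares are not adjusted for length, so long genes weigh more in them than short ones. Hspb8 and Hspb1 had the highest levels per kb among the small HSPs that the rule took, and Dnaja2 among the J-proteins. Cryab, a small HSP that the rule did not take, had 150 to 177 CPM in the 8 libraries, against 51 to 91.9 CPM for Hspb8, also without adjustment for length. Merged exons hold all annotated transcripts, used or not, so the order per kb depends on that length. Dnaja1 had a mean of 413 CPM on 8.63 kb, and Dnaja2 306 CPM on 2.98 kb.

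**Figure D1:**
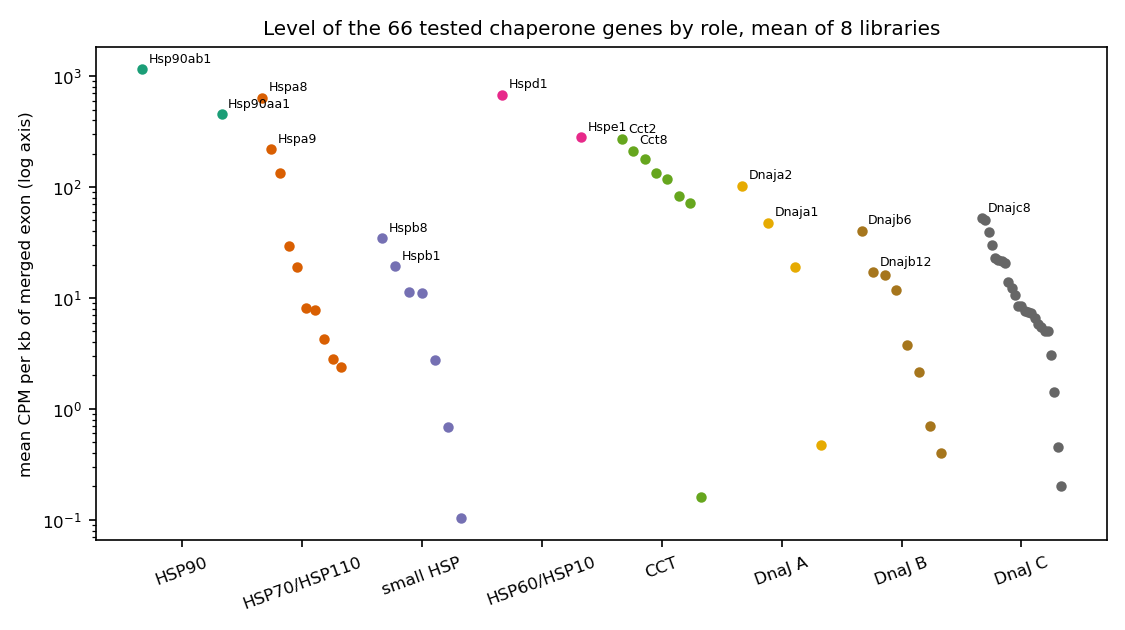
Mean level of each of the 66 tested genes over 8 libraries, in CPM per kb of merged exon on a log axis, by role; the top genes of each role are named. Hsp90ab1 (1150), Hspd1 (680) and Hspa8 (640) stood highest, and J-proteins lay lower, with Dnaja2 highest at 103.

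Some of these counts can be split between near-identical sequences. Hspa1a and Hspa1b share 63.8% and 67.6% of their 31-base words with each other, and while Hspa1b had 281 to 486 counts a library, Hspa1a had 0 to 8. Pseudogenes that share sequence with Hspa8 (Gm15459, 532 to 1098 counts), Hsp90aa1 (Gm12346, 409 to 671) and Hspd1 (Hspd1-ps3, 308 to 507) also took counts, so these levels are uncertain to that degree. The Hspb1 copy Hsp25-ps1, which shares 52.3% of the words of Hspb1, had 0 to 3 counts.

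Library totals were 25422758 to 36654519 counts, and the 77 genes took 1.82% to 2.05% of them. Drg2 had 6.46 and 7.66 CPM in shDRG2 cells with IFN-γ against 72.3 and 64.3 CPM in pLKO cells with IFN-γ, and 8.68 and 9.34 CPM in shDRG2 cells against 76.3 and 68.6 CPM in pLKO cells without it, so it was 9.63-fold and 8.06-fold lower (edgeR adjusted p = 7.8e-07 and 1.53e-06). All 7 melanocytic markers were expressed, with a summed level of 9620 to 11100 CPM in the 4 IFN-γ libraries and 12900 to 14900 CPM in the 4 without. Of 6 immune markers none was expressed enough to be tested (sum 0.0999 to 0.313 CPM, with Cd3e, Adgre1 and Itgam among those at 0). The 4 epithelial markers summed to 0.164 to 0.657 CPM, with Epcam and Krt18 at 0. The 5 fibroblast markers summed to 4.16 to 5.74 CPM with IFN-γ and 15.8 to 19.5 CPM without, nearly all of it Col1a2 (3.26 to 4.82 CPM with IFN-γ and 14.7 to 18.9 CPM without), with Dcn at 0 in 7 libraries. The 4 endothelial markers, of which Vwf made up most without IFN-γ, summed to 0.457 to 0.7 CPM with IFN-γ, and without it to 5 and 5.91 CPM in shDRG2 cells and 1.5 and 2.16 CPM in pLKO cells, with Cdh5 and Kdr at 0. The part of these marker shifts in the results that follow was not tested. In bulk RNA, fewer cells of a kind and less RNA per cell cannot be told apart.

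IFN-γ changed a minority of the chaperone genes, most of them by small amounts. The largest change among called genes was that of Hspb1 in each line. Cct6b, a gene with few counts, was also called in shDRG2 cells. It passed the filter on low counts only through the shDRG2 libraries with IFN-γ, where it was high. Its call, counted among those that rose, is therefore not independent of the filter. In shDRG2 cells 12 of the 66 tested genes rose and 3 fell, and in pLKO cells 9 rose and 1 fell (edgeR quasi-likelihood F test, two-sided, Benjamini-Hochberg adjusted p under 0.05 over 13500 genes, n = 2 libraries a group). The totals of 15 and 10 came to 4 without shDRG2 IFN-γ replicate 1 in shDRG2 cells, and to 5 without pLKO replicate 1 or pLKO IFN-γ replicate 2 in pLKO cells. Without shDRG2 replicate 1 or shDRG2 IFN-γ replicate 2 the shDRG2 total was 6 or 8. Over all tested genes IFN-γ called 31.4% in shDRG2 cells (16.2% higher and 15.2% lower) and 28.1% in pLKO cells (15.4% higher and 12.7% lower). The chaperone genes were called at a lower share than that in both lines, and the difference lay mostly in genes called lower. Those were 3 and 1 of 66 in shDRG2 and pLKO cells, against 15.2% and 12.7%. The 12 and 9 of 66 called higher were close to the 16.2% and 15.4% over all tested genes. The median log2 fold change of the 66 genes was 0.08 in each line, against 0.00 and 0.01 over all tested genes in shDRG2 and pLKO cells. Hspb1, Hspb2, Hspb6, Hspb8, Hspa4l, Dnajc1 and Dnajc17 rose in both lines, which is 58.3% of the higher list in shDRG2 cells and 77.8% of that in pLKO cells, and Dnajc10 fell in both. The direction was the same in both lines for 56 of the 66 genes, and the 2 comparisons share no library. Neither this agreement nor the overlap of the lists was counted over all tested genes, so neither can be called particular to the chaperone genes.

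Cryab, a small HSP that the rule did not take, had 150 to 177 CPM and was not called with IFN-γ. Its log2 fold changes were -0.02 in shDRG2 and 0.00 in pLKO cells. By median log2 fold change, 0.41 in each line, the small HSP group that the rule took moved most among the role groups. Of its 7 tested genes, the same 4 rose in both lines and none fell in either (4 had an unadjusted p under 0.05 in each, all 4 positive). DESeq2 called 3 of the 7 in each line, without Hspb2. Over all tested genes 16.2% and 15.4% were called higher in shDRG2 and pLKO cells. Whether the group rose more often than other genes was not tested. The summed CPM of the 9 genes of the group, which hold Hspb11 and Hspbap1 but not Cryab, was 178 and 158.2 in shDRG2 cells with IFN-γ against 115.4 and 107.4 without. In pLKO cells the sum was 161.4 and 153.2 with IFN-γ against 104.1 and 104.8 without. Hspb1 (HSP25 in the mouse, HSP27 in humans), which holds unfolded proteins and binds actin filaments, had the largest rise of the group. It lies on chromosome 5 at 135887919 to 135889563 (plus strand, mm10).

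In shDRG2 cells Hspb1 stood at 30.6 and 27.2 CPM with IFN-γ and at 7.49 and 7.75 CPM without. In pLKO cells it stood at 33.7 and 30.9 CPM with IFN-γ and at 11.9 and 10.7 CPM without. All 4 stimulated libraries were above all 4 unstimulated ones, and the values of a group lay close together. The log2 fold change was 1.92 (SE 0.111, adjusted p = 4.69e-07) in shDRG2 cells and 1.52 (SE 0.106, adjusted p = 2.42e-06) in pLKO cells, and both calls held in all 13 alternative fits.

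Hspb8, which works with the co-chaperone BAG3 in the removal of damaged proteins, had 91.9 and 78.8 CPM with IFN-γ against 66.1 and 55.7 CPM without in shDRG2 cells. In pLKO cells it had 75.2 and 70.1 CPM with IFN-γ against 53.7 and 51 CPM without. Within each line the groups did not overlap, and the log2 fold changes were 0.49 (SE 0.104, adjusted p = 0.00515) and 0.47 (SE 0.104, adjusted p = 0.00718) in shDRG2 and pLKO cells. Hspb6, or HSP20, had 33 and 29 CPM with IFN-γ against 23 and 23.3 CPM without in shDRG2 cells, and 29.1 and 27.1 CPM against 19.1 and 21 CPM in pLKO cells. Its log2 fold changes were 0.42 (adjusted p = 0.00822) and 0.49 (adjusted p = 0.00439). In shDRG2 cells the calls of Hspb8 and Hspb6 were lost when shDRG2 IFN-γ replicate 1 was left out, with adjusted p of 0.0591 and 0.0788.

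Hspb2, known mainly from muscle, stood at 9.69 and 9.79 CPM with IFN-γ and at 6.69 and 7.98 CPM without in shDRG2 cells. The pLKO values were 11.7 and 11.3 CPM with IFN-γ and 8.25 and 9.01 CPM without, and the log2 fold change was 0.41 in each line (adjusted p = 0.0342 in shDRG2 and 0.0341 in pLKO cells). These calls are the least stable of the 4, held in 8 and 6 of 13 alternatives in shDRG2 and pLKO cells and lost in both with DESeq2 and with library size as the only scaling. Of the exon bases of Hspb2, 30.2% overlap Cryab on the opposite strand, whether counting used strand is not stated, and Cryab itself, another small HSP with 3881 to 5586 counts a library, had log2 fold changes of -0.02 and 0.00 (adjusted p = 0.898 and 0.99). The 3 other tested genes of the group, Hspb7, Hspb11 (an intraflagellar transport protein) and Hspbap1, did not pass the test, with log2 fold changes between -0.07 and 0.25.

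**Figure D2:**
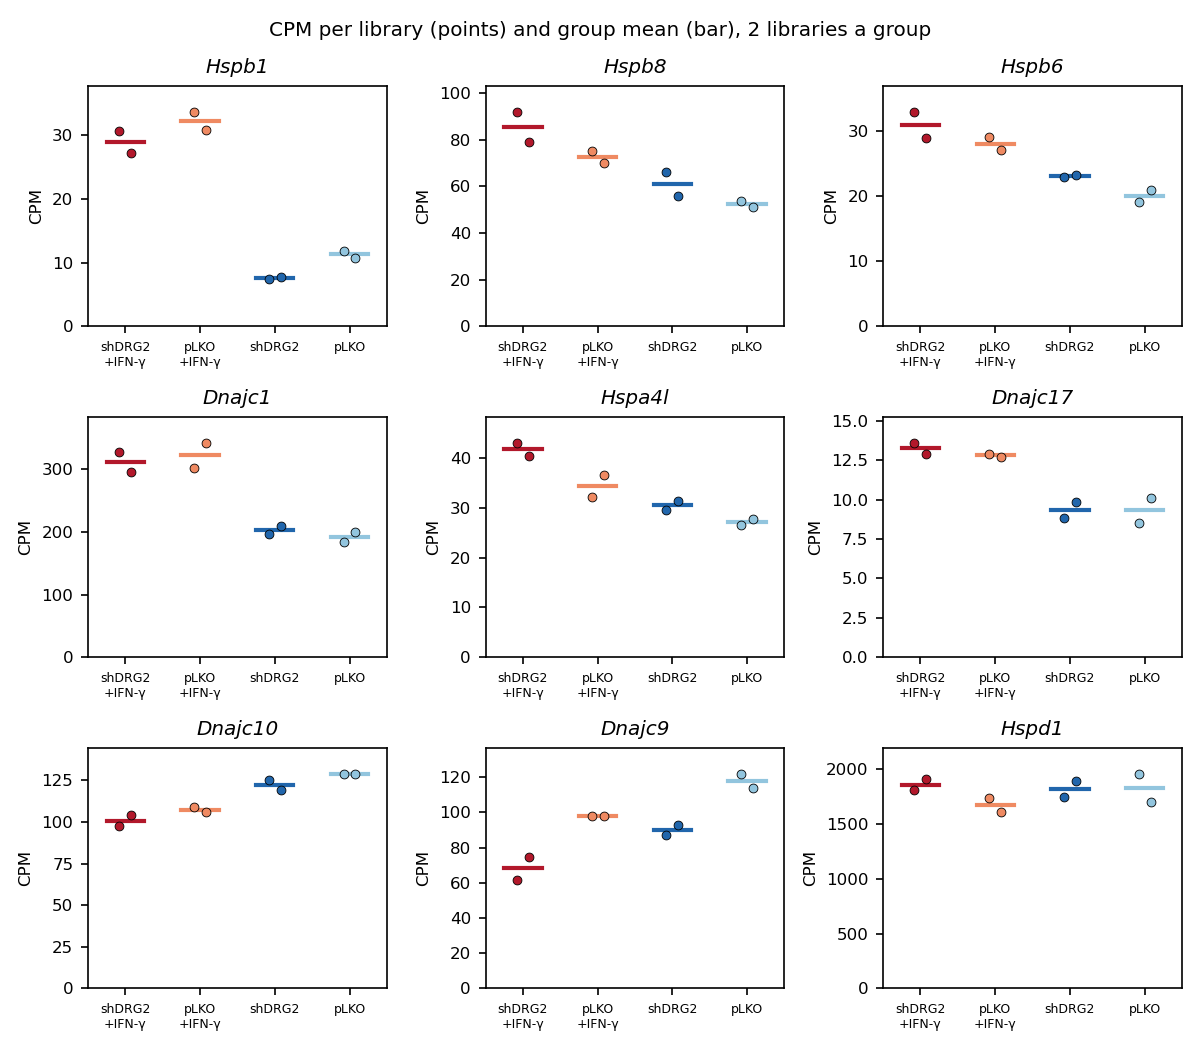
CPM in each library (points) and the mean of 2 libraries (bars) for 9 chaperone genes, with each axis starting at 0. Hspb1 was at 27.2 CPM or above in the 4 IFN-γ libraries and at 11.9 or below in the others, whereas Hspd1 overlapped between the groups of each line.

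Among the HSP70 and HSP110 genes, Hspa4l was the single member of 10 tested that edgeR called, and it rose in both lines. Hspa4l belongs to the HSP110 family of nucleotide exchange factors. It had 43 and 40.3 CPM with IFN-γ against 29.6 and 31.4 CPM without in shDRG2 cells, and 32.2 and 36.6 CPM against 26.6 and 27.7 CPM in pLKO cells. The log2 fold changes were 0.45 (SE 0.0905, adjusted p = 0.00353) and 0.34 (SE 0.0912, adjusted p = 0.0179). The pLKO call was lost without pLKO replicate 1, pLKO replicate 2 or pLKO IFN-γ replicate 2, with adjusted p up to 0.155, and the shDRG2 call held in all 13 alternatives.

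The abundant HSP70 genes were not called. Hspa8 had 2880 and 2980 CPM with IFN-γ against 2540 and 2600 CPM without in shDRG2 cells, and 2920 and 2790 CPM against 2740 and 2550 CPM in pLKO cells, with log2 fold changes of 0.19 (adjusted p = 0.102) and 0.11 (adjusted p = 0.357). Hspa9, the mitochondrial HSP70, had log2 fold changes of 0.16 and 0.02, and Hspa4, an HSP110 protein, of 0.03 and -0.05, in shDRG2 and pLKO cells. Hspa1b, the inducible HSP70, lay between 8.59 and 14 CPM in all libraries and had 0.21 (adjusted p = 0.428) and 0.18 (adjusted p = 0.534). Hspa2, known from testis, had 0.16 in shDRG2 cells and 0.48 (adjusted p = 0.0568) in pLKO cells, where DESeq2 called it. Hsph1, or HSP110, had -0.14 and -0.12.

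Of the HSP90 pair, Hsp90ab1 rose in shDRG2 cells and narrowly missed the threshold in pLKO cells. It had 3840 and 3590 CPM with IFN-γ against 3000 and 3220 CPM without in shDRG2 cells, and 3840 and 3700 CPM against 3260 and 3180 CPM in pLKO cells. No stimulated library of either line was as low as an unstimulated one, and the log2 fold changes were 0.26 (SE 0.0833, adjusted p = 0.0389) and 0.23 (SE 0.0833, adjusted p = 0.0673). The shDRG2 call was lost when any of the 4 shDRG2 libraries, or pLKO IFN-γ replicate 2, was left out (adjusted p up to 0.23). DESeq2 called Hsp90ab1 in both lines. Hsp90aa1, the more inducible copy, had log2 fold changes of 0.01 and 0.01 (adjusted p = 0.955 and 0.965).

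The chaperonins stayed within narrow limits. Hspd1 had 1810 and 1910 CPM with IFN-γ against 1750 and 1890 CPM without in shDRG2 cells, and 1740 and 1610 CPM against 1960 and 1700 CPM in pLKO cells, with log2 fold changes of 0.03 and -0.13. Its partner Hspe1 had 0.09 and 0.05. The 7 well expressed CCT genes averaged from 301 CPM (Cct4) to 799 CPM (Cct7), and over all 5 comparisons none was called by edgeR or by DESeq2, the largest log2 fold change in size being 0.21 (Cct3 in shDRG2 cells with IFN-γ, 568 ± 1.27 CPM against 491 ± 13 CPM without, SD, n = 2 each) and the smallest adjusted p 0.0825. Cct2 and Cct8, the others of the top 3 with Cct7, had log2 fold changes of 0.07 and -0.07 in shDRG2 cells and -0.05 and -0.12 in pLKO cells. Cct6b, a copy of Cct6a known from testis, was called higher in shDRG2 cells (log2 fold change 1.60, SE 0.446, adjusted p = 0.0198) on 39 counts with IFN-γ against 11 without. Its pLKO counts were 16 with IFN-γ and 10 without. It had 0.633 and 0.547 CPM in shDRG2 cells with IFN-γ and 0.153 to 0.274 CPM in all other libraries. The filter on low counts kept it through the former only, so the call gives no support for a rise. The Cct6b call was lost with DESeq2 and when any of the 4 shDRG2 libraries was left out.

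Among the 37 tested J-proteins, 5 rose and 3 fell in shDRG2 cells and 4 rose and 1 fell in pLKO cells, which is a lower share than the 31.4% and 28.1% of all tested genes. Dnajc1, a J-protein of the endoplasmic reticulum membrane, had the largest change of those called. It had 327 and 296 CPM with IFN-γ against 197 and 210 CPM without in shDRG2 cells, and 302 and 342 CPM against 184 and 200 CPM in pLKO cells. Stimulated and unstimulated libraries did not overlap in either line. The log2 fold changes were 0.62 (SE 0.0917, adjusted p = 0.000548) and 0.75 (SE 0.0918, adjusted p = 0.00017), called in all 13 alternatives. Mllt10, on the opposite strand over 6.43% of its exon bases, had -0.15 and -0.17 and was not called.

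Dnajc17, whose human protein is linked to splicing, had 13.6 and 12.9 CPM with IFN-γ against 8.86 and 9.84 CPM without in shDRG2 cells. In pLKO cells it had 12.9 and 12.7 CPM against 8.52 and 10.1 CPM. The log2 fold changes were 0.51 (adjusted p = 0.0107) and 0.46 (adjusted p = 0.0187), and they held in 11 and 10 of 13 alternatives. Dnajc17 overlaps Zfyve19 on the opposite strand over 8.26% of its exon bases, and Zfyve19 had log2 fold changes of 0.29 (adjusted p = 0.0303) and 0.26 (adjusted p = 0.0535). Dnajc10 (ERdj5), which reduces disulfide bonds in the endoplasmic reticulum, fell to 97.7 and 104 CPM with IFN-γ, against 125 and 119 CPM without, in shDRG2 cells. It fell to 109 and 106 CPM with IFN-γ in pLKO cells, against 129 and 129 CPM without. These are log2 fold changes of -0.27 (adjusted p = 0.0158) and -0.26 (adjusted p = 0.0227). The Dnajc10 call was lost without either replicate 1 library of shDRG2 cells (adjusted p up to 0.126) and without any of the 4 pLKO libraries in pLKO cells (up to 0.128).

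Other J-protein calls were made by edgeR in a single line, which does not show that the lines differ, and DESeq2 called Dnajc9 in both. In shDRG2 cells Dnaja3 (a mitochondrial partner of HSPA9) rose by 0.24 on the log2 scale, Dnajc2 (which sits on ribosomes in human cells) by 0.40 and Dnajc8 (a human spliceosome protein) by 0.27, while Dnajc25 fell by 0.35 and Dnajc9 by 0.40, with adjusted p from 0.00892 to 0.0234. In pLKO cells the same genes had log2 fold changes of 0.14, 0.23, 0.15, -0.28 and -0.27. Dnajc14 rose by 0.33 (adjusted p = 0.00748) and Dnajc18 by 0.27 (adjusted p = 0.0219) in pLKO cells, both J-proteins of the endoplasmic reticulum membrane, and had 0.20 (adjusted p = 0.0664) and 0.11 (adjusted p = 0.287) in shDRG2 cells. The call of Dnajc14 held in all 13 alternatives, but 17% of its exon bases overlap Ormdl2 on the opposite strand, which was itself called higher, by 0.31 in shDRG2 and 0.43 in pLKO cells (adjusted p = 0.0205 and 0.00455). The calls of Dnajc18 in pLKO cells and of Dnaja3 and Dnajc25 in shDRG2 cells were lost when any library of their comparison was left out. Those of Dnajc2, Dnajc8 and Dnajc9 were lost without 2, 3 and 2 of the 4 shDRG2 libraries.

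Several abundant J-proteins were not called by edgeR or DESeq2 in either line. Dnaja1 and Dnaja2, cytosolic partners of HSP70, had log2 fold changes of -0.02 and 0.17 in shDRG2 cells and -0.01 and 0.10 in pLKO cells. For Dnajb6, Dnajb12 and Dnajb1 the shDRG2 values were 0.12, -0.24 and -0.21, and the pLKO values 0.13, -0.20 and -0.11. Dnajc13 and Dnajc7 lay between -0.02 and 0.07 in both lines. Among members of at least 5 CPM the lowest log2 fold change in pLKO cells was that of Dnajc27, -0.30 (adjusted p = 0.102). By location, 3 of 9 tested endoplasmic reticulum J-proteins rose and 1 fell in pLKO cells, and 1 rose and 2 fell in shDRG2 cells. Of 10 mitochondrial members 1 (Dnaja3) rose in shDRG2 cells and 0 were called in pLKO cells (edgeR, 0 at an unadjusted p under 0.05, 0 by DESeq2). Over all tested genes 28.1% in pLKO and 31.4% in shDRG2 cells were called in either direction. These few genes are therefore no result about location.

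Of 14 genes listed as heat-inducible, 13 were tested and 1, Hspa1a, was too low. In shDRG2 cells 4 rose with IFN-γ (Hspb1, Hspb8, Hspa4l and Hsp90ab1), and in pLKO cells 3 rose (the same without Hsp90ab1). Over all tested genes 16.2% and 15.4% were called higher in shDRG2 and pLKO cells, so these few genes are no result about the list. The 9 that were called in neither line were Hspa1b, Hspa8, Hsph1, Hsp90aa1, Hspd1, Hspe1, Dnaja1, Dnajb1 and Dnajb4, with log2 fold changes between -0.21 and 0.34 in shDRG2 cells and between -0.13 and 0.32 in pLKO cells. The ends of these ranges are Dnajb1 and Dnajb4 in shDRG2 cells and Hspd1 and Dnajb4 in pLKO cells.

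The IFN-γ responses of the 66 genes were compared between the lines by an interaction term. It called 0 of the 66 genes (1 had an unadjusted p under 0.05, and DESeq2 also called 0), against 0.00741% of all tested genes. The 1 gene was Hspb1, whose response was larger in shDRG2 cells by 0.41 on the log2 scale (SE 0.153, unadjusted p = 0.0236, adjusted p = 1). Hspa2 had the most negative difference among members of at least 5 CPM, -0.32 (SE 0.234). For 51 of the 59 genes of at least 5 CPM, the 95% interval of the difference lay within 1.5-fold in either direction.

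**Figure D3:**
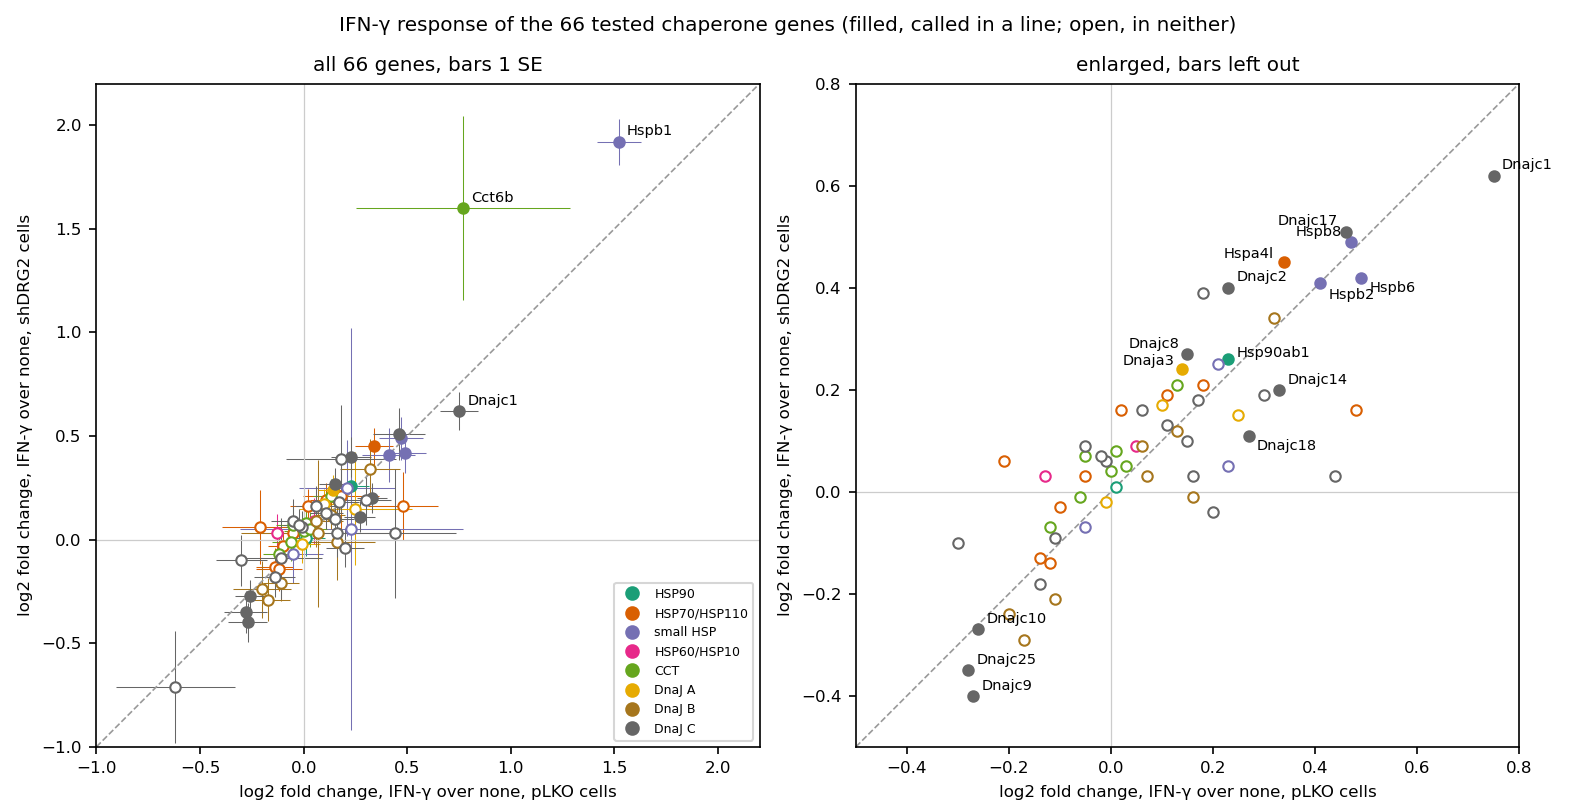
Log2 fold change with IFN-γ in shDRG2 cells (vertical) against pLKO cells (horizontal) for the 66 tested genes, with 1 SE bars on the left and an enlarged centre on the right; filled points were called in at least 1 line and the dashed line marks equal change. Hspb1 lies far from the others, at 1.52 in pLKO and 1.92 in shDRG2 cells.

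Knockdown of Drg2 left nearly all chaperone genes without a call. With IFN-γ 0 members were called higher and 1, Dnajc9, lower in shDRG2 than in pLKO cells, against 1.67% of all tested genes in either direction (0.504% higher and 1.17% lower). Without IFN-γ 0 were called higher and 1, Hspb1, lower, against 1.2% of all tested genes (0.467% higher and 0.733% lower). At an unadjusted p under 0.05 there were 8 and 5 members with and without IFN-γ in either direction, and DESeq2 called 1 and 2, all lower. The median log2 fold change of the 66 genes was 0.03 with IFN-γ and 0.00 without, and both comparisons share their libraries with the IFN-γ comparisons. For 54 of the 59 genes of at least 5 CPM with IFN-γ, and 52 without, the 95% interval excluded a change of more than 1.5-fold.

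Hspb1 fell to 7.49 and 7.75 CPM in shDRG2 cells, against 11.9 and 10.7 CPM in pLKO cells, without IFN-γ. That is a log2 fold change of -0.57 (SE 0.115, adjusted p = 0.048). With IFN-γ the values were 30.6 and 27.2 CPM in shDRG2 cells and 33.7 and 30.9 CPM in pLKO cells, a log2 fold change of -0.16 (adjusted p = 0.622), and those groups also did not overlap. The call without IFN-γ was lost when any 1 of the 8 libraries was left out, with log2 fold changes of -0.64 to -0.50 and adjusted p of 0.0514 to 0.31. Vwf, 1 of the 4 endothelial markers, was also higher in the same shDRG2 libraries (5.35 and 4.57 CPM against 1.07 and 1.56 CPM in pLKO cells), while Pecam1 overlapped between the lines and Cdh5 and Kdr were at 0, and its part in this result was not tested.

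Hspb7, a small HSP known from heart muscle, was low in every library. The filter on low counts kept it only through pLKO libraries, at 0.313 to 0.742 CPM against 0.0333 to 0.137 CPM in shDRG2 libraries. The ratios of Hspb7 are therefore not independent of that selection and give no support for a drop. It had 6 counts in shDRG2 against 31 in pLKO libraries with IFN-γ, a ratio of CPM of 0.174 with a 95% counting interval of 0.0593 to 0.423. Without IFN-γ it had 5 against 29 counts, a ratio of 0.192 (0.0582 to 0.503). Both intervals pool the 2 libraries of a group and cover counting error only. The edgeR test did not call Hspb7 (adjusted p = 0.133 and 0.197), and it was called in both when no filter on low counts was used.

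**Figure D4:**
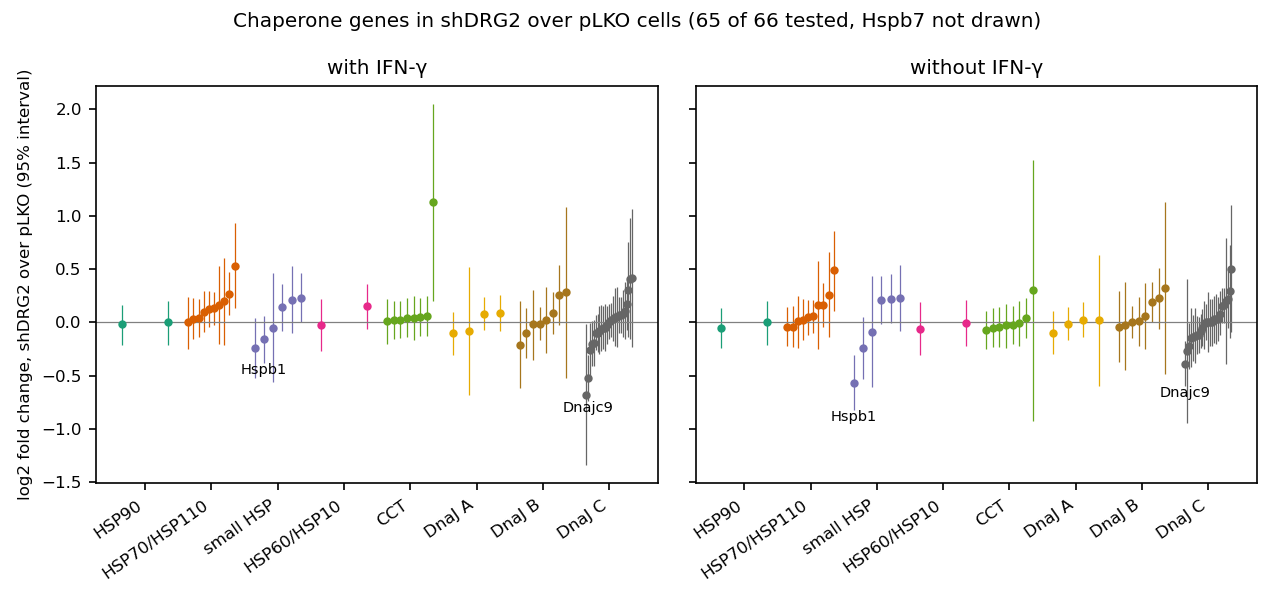
Log2 fold change of shDRG2 over pLKO cells with its 95% interval, with IFN-γ (left) and without (right), for 65 of the 66 tested genes by role; the low Hspb7 is not drawn. Dnajc9 with IFN-γ (-0.52) and Hspb1 without (-0.57) are the called genes, and most others lie close to 0.

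Dnajc9, a J-protein that in human cells is also a chaperone of histones H3 and H4, had 61.8 and 74.5 CPM in shDRG2 cells against 98.2 and 97.9 CPM in pLKO cells with IFN-γ. Without IFN-γ it had 87.2 and 93.1 CPM in shDRG2 cells against 122 and 114 CPM in pLKO cells. The lines did not overlap in either condition. The log2 fold change was -0.52 (SE 0.0951, adjusted p = 0.0254) with IFN-γ and -0.39 (SE 0.0944, adjusted p = 0.084) without. The call with IFN-γ was lost without shDRG2 IFN-γ replicate 1, pLKO IFN-γ replicate 1 or pLKO IFN-γ replicate 2, with adjusted p of 0.211, 0.1 and 0.0844, and DESeq2 called Dnajc9 in both conditions.

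Dnajc9 lies on chromosome 14 (20384638 to 20388910, minus strand, mm10), and most genes of that chromosome were lower in shDRG2 cells. Of 435 other tested genes there, 385 had a negative log2 fold change with IFN-γ and 388 without, with medians of -0.27 and -0.28, against 0.01 in each condition for 12366 genes placed on other chromosomes. Of the 24 tested genes within 1 Mb of Dnajc9, 22 were negative with IFN-γ and 24 without. With IFN-γ 14.3% of the chromosome 14 genes, and without it 27.8%, were at or below the log2 fold change of Dnajc9. The other tested member on chromosome 14, Dnajc15, of the mitochondrial import motor, had -0.19 (adjusted p = 0.475) and -0.14 (adjusted p = 0.607). A difference between the lines along chromosome 14 and an effect of the knockdown on Dnajc9 itself cannot be told apart here. The IFN-γ responses showed no such shift, with medians over those 435 genes of 0.01 in shDRG2 and 0.02 in pLKO cells.

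**Figure D5:**
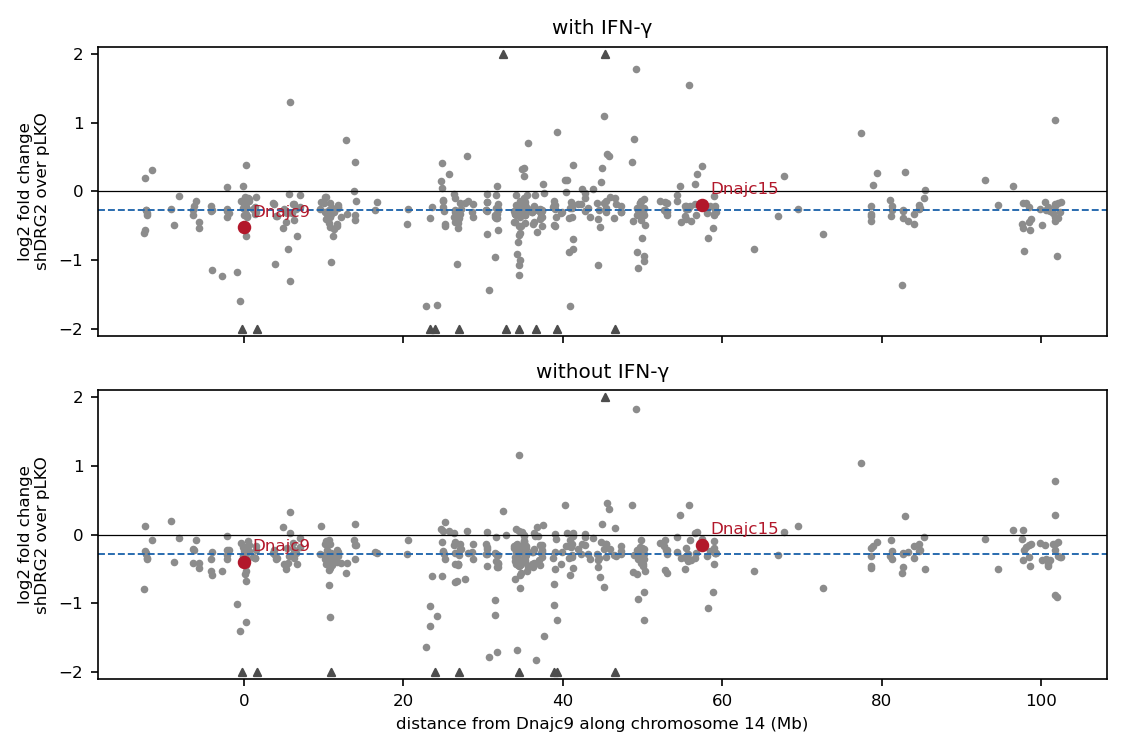
Log2 fold change of shDRG2 over pLKO cells for the tested genes of chromosome 14, by distance from Dnajc9 in Mb, with IFN-γ (above) and without (below); triangles are genes beyond 2 in size, drawn at the edge, and the dashed line is the median. The points sit below 0 along the length of the chromosome, with medians near -0.27 and -0.28, and Dnajc9 lies at -0.52 and -0.39.

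No other role group had a call between shDRG2 and pLKO cells. Hspa12b, an HSP70-like gene known from endothelium, had the highest log2 fold change among members of at least 5 CPM with IFN-γ, 0.53 (SE 0.18, adjusted p = 0.235), at 9.33 and 10.9 CPM in shDRG2 cells against 6.3 and 7.74 CPM in pLKO cells. Without IFN-γ the highest was that of Hspa2, 0.49 (SE 0.167, adjusted p = 0.234), at 22.4 and 22.9 CPM against 13.3 and 19.1 CPM. Both had groups that did not overlap, and both were called when no filter on low counts was used.

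The heat-inducible list gave 0 calls with IFN-γ (2 at an unadjusted p under 0.05, 0 by DESeq2) and 1, Hspb1, without. With IFN-γ its log2 fold changes of shDRG2 over pLKO were 0.00 for Hsp90aa1 and Hsph1, -0.02 for Hsp90ab1, 0.04 for Hspa8, 0.20 for Hspa1b, 0.27 for Hspa4l, 0.23 for Hspb8, 0.15 for Hspd1, -0.03 for Hspe1, -0.10 for Dnaja1, 0.09 for Dnajb1 and -0.02 for Dnajb4. The same genes without IFN-γ ran from -0.10 (Dnaja1) to 0.22 (Hspb8), apart from Hspb1. Hspa4l was at 43 and 40.3 CPM in shDRG2 cells and 32.2 and 36.6 CPM in pLKO cells with IFN-γ, which do not overlap, at an adjusted p of 0.211. Among the top members of each role, Hspa9, Hspa4, Cct7, Cct2, Cct8, Dnaja2, Dnaja3, Dnajb6, Dnajb12, Dnajc1, Dnajc13 and Dnajc7 lay between -0.12 and 0.12 in both conditions, with adjusted p of 0.594 or more. Hspb6 and Dnajb1, also top members, lay outside that range without IFN-γ. Their log2 fold changes were 0.21 and 0.19 (edgeR adjusted p = 0.433 and 0.393), with groups that did not overlap.

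Of 42 listed co-chaperones, heat shock factors and prefoldin subunits, all were tested, and 5 rose and 6 fell with IFN-γ in each line, against 31.4% and 28.1% of all tested genes called in either direction in shDRG2 and pLKO cells. Ahsa1 (an HSP90 activator), Bag3, Cacybp, Pdcl3 (a CCT cofactor) and Trap1 (the mitochondrial HSP90) rose in both, Trap1 by 0.71 in shDRG2 and 0.59 in pLKO cells (adjusted p = 0.000106 and 0.000431). Bag3, the partner of Hspb8, had 126 and 103 CPM with IFN-γ against 72.4 and 68.1 CPM without in shDRG2 cells, and 116 and 102 CPM against 71.6 and 73.5 CPM in pLKO cells, log2 fold changes of 0.70 (adjusted p = 0.000585) and 0.58 (adjusted p = 0.00219). Bag4, Fkbp5, Ppp5c and Hsf4 fell in both. Ppp5c, an HSP90-bound phosphatase, fell by 0.66 in shDRG2 and 0.57 in pLKO cells, Fkbp5 by 0.54 and 0.50, Bag4 by 0.51 and 0.52, and Hsf4 by 0.61 and 0.34. Grpel2 and Stip1 fell in shDRG2 cells, and Bag5 and Ppid in pLKO cells. Hsf1 itself, at 26.1 to 31.4 CPM in all libraries, was not called. The knockdown comparisons called 0 of the 42 in either condition (1 in each at an unadjusted p under 0.05, 0 by DESeq2).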

How the data were processed

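The table the authors deposited holds estimated counts per gene without any scaling of the libraries. The submitters' processing notes name STAR, Salmon 1.5.2 and the genome mm10. No source used here gives the annotation or the strandedness of counting. Whole numbers (to within 0.0015) made up 86.4% of values above 0. Of 45583 rows, 27 with names turned into dates (0.204% to 0.212% of counts) were left out.

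Counts were rounded and fitted in R 4.3.3 with edgeR 4.0.16 (filterByExpr, TMM factors 0.973 to 1.04, 1 coefficient per group, all 8 libraries, 4 residual degrees of freedom). A call is a Benjamini-Hochberg adjusted p under 0.05 over 13500 genes. The 5 comparisons were the knockdown with and without IFN-γ, IFN-γ in each line, and the difference of the IFN-γ responses. CPM uses TMM-adjusted library sizes, SE is that of the log2 fold change, and counting intervals are exact at 95% and cover counting error only. The spread between the 2 libraries of a group was 12 to 16.1 times the counting variance, so all 8 were counted as separate libraries. Positions and merged exon lengths are from GENCODE M21 (GRCm38, the assembly mm10 names), and motif searches used RefSeq promoter windows (GRCm38.p6). The test was tried on simulated counts.

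Genes named are members called in any comparison, the top 3 of each role by CPM, the highest and lowest change among members of at least 5 CPM, the heat-inducible list and called co-chaperones. The members and lists were chosen with earlier results of these data known. Alternatives were other size factors (RLE), library size only, no filter, DESeq2 1.42.0, a replicate term, and leaving out each library.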

Additional observations from a re-analysis of the deposited data

How the results depend on the processing

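No called member changed direction in any of the 13 alternatives. Leaving out 1 library at a time gave 0 to 1 called members for the knockdown with IFN-γ and 0 to 0 without (1 in each with all libraries), 4 to 16 for IFN-γ in shDRG2 cells (15 with all) and 5 to 11 in pLKO cells (10 with all). The lowest values came without shDRG2 IFN-γ replicate 1 (4), and without pLKO replicate 1 or pLKO IFN-γ replicate 2 (5 each). With no filter on low counts the knockdown called 3 members with IFN-γ and 4 without, and DESeq2 called 2 without. With the replicate number as a block, the calls were 2 and 3 for the knockdown with and without IFN-γ, 23 for IFN-γ in shDRG2 cells and 18 in pLKO cells. The block added Hspa12b with IFN-γ (adjusted p = 0.0182), and Hspa2 (0.0416) and Dnajc9 (0.0194) without. The labels do not say that a number marks a shared batch, and 2 numbers cannot show it, although the deviations of same-numbered libraries correlated at 0.114 and 0.204 in the knockdown comparisons with and without IFN-γ, and at 0.255 and 0.274 in the IFN-γ comparisons of shDRG2 and pLKO cells. The difference of the responses called 0 members in every alternative. The cause of these changes was not tested. Other scaling moved the median log2 fold change of all genes by at most 0.04. With 2 libraries a group, changes well under 1.5-fold often could not be told from the spread, and Hspa1a, Hspb7 and Cct6b rest on few counts.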
